A study of Homo sapiens with 6 samples.

Results

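Glycolysis and the response to low oxygen were followed through 37 genes in a comparison of S153E-RKIP with control in human breast cancer cells. The genes were chosen by name, with earlier results of these data known. Each gene was read by the brightest of its own probe sets, that is the one with the highest mean over all 6 arrays among the probe sets that carry only its symbol. Of the 37 genes, 35 had such a probe set, out of 19775 genes on the array that did. SLC16A3 and CA9 were not analysed here. The list held 22 genes of glycolysis and its branch points and 15 of the hypoxia response, of which 21 and 14 were measured. The mean level was above the median of all genes (6.64) for 33 of the 35, and below it for ALDOC and EGLN3. Levels are log2 RMA values throughout. A difference is the S153E-RKIP mean minus the control mean on that scale.

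The S153E-RKIP group comprised 3 arrays of MDA-MB-231 1833 cells, a bone-seeking subline of a triple-negative breast cancer line, that had received S153E-RKIP through a lentivirus and were kept in 0.5 µg/ml puromycin. S153E-RKIP is a mutant of RKIP, the Raf-1 binding protein encoded by PEBP1, and the series calls it the stronger Raf-1 inhibitor. The control group comprised 3 arrays of the same subline, described as carrying the vector. The labels give no puromycin for the control cells, so S153E-RKIP and any difference in drug selection cannot be told apart. Both were grown in medium with 10% serum, and the labels give no oxygen level, cell density or number of clones. The 3 samples of a group are called biological replicates with no word on how they were made, so a p-value reflects only how far these samples spread, and that spread may be technical.

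The labels were checked first. PEBP1 had values of 11.74, 11.64 and 11.61 on the arrays labelled S153E-RKIP, against 11.77, 11.73 and 11.77 on the control arrays (difference -0.093, limma adjusted p = 0.473), so its signal was not higher where the transgene is labelled. The sources used here do not say whether its probe sets would pair with the transgene. The source name of the same samples mentions shRNA against HMGA2, whose difference was -0.023 (adjusted p = 0.882). Every direction below therefore rests on the label S153E-RKIP. All 8 markers of MDA-MB-231-like cells lay above the median level of all genes, as did 3 of 8 luminal, 0 of 7 blood cell, 1 of 6 fibroblast or osteoblast and 1 of 5 endothelial markers. Of the MDA-MB-231-like markers CAV2 fell by 0.29 (adjusted p = 0.0387). A difference above 0 was found for all 7 blood cell, 7 of 8 luminal, 5 of 6 fibroblast or osteoblast and 4 of 5 endothelial markers. It was found for 3 of 8 MDA-MB-231-like markers and for 10613 of all 19775 genes. None of the blood cell markers was called, and their part in the results was not tested. Over all genes, the groups lay apart along principal component 1 (46.1% of the variance), and component 2 (21.6%) set replicate 1 of S153E-RKIP apart from its other replicates.

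Glycolysis turns glucose into pyruvate, and cancer cells of this kind send much of that pyruvate to lactate. Hypoxia-inducible factors (HIF) are pairs of an oxygen-sensitive alpha subunit and a stable beta subunit. When oxygen is present, prolyl hydroxylases mark the alpha subunit for destruction through VHL. When oxygen is low, HIF enters the nucleus and switches on genes for glucose uptake, glycolysis, blood vessel growth, acid handling and mitophagy.

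None of the 35 measured genes passed the test between the groups (limma, adjusted p under 0.05), where 1.9% of all genes did (0.688% higher and 1.21% lower). An unadjusted p under 0.05 was reached by 8 of the 35, against 15.7% of all genes (7.75% higher and 7.92% lower). Of these 8, SLC2A1, SLC2A3, HK2, PFKFB4, ADM, BNIP3L and ANKRD37 had lower values and P4HA2 had higher values on the arrays labelled S153E-RKIP. The groups did not overlap for 10 of the 35, 3 higher and 7 lower, against 20.1% of all genes (9.31% higher and 10.8% lower). These were the same 8 genes together with PFKL and GAPDH, both slightly higher, although the GAPDH difference was -2.1e-04 once array medians were made equal. The difference was below 0 for 22 of the 35, against 46.3% of all genes. Its median was -0.018 over the 35 genes and 0.010 over all genes tested. The largest difference was that of ANKRD37, at 1.32-fold lower. In a simulation of this comparison the test found 19 of 50 genes changed 1.3-fold and 41 of 50 changed 1.5-fold. In that simulation a 1.3-fold change was thus often missed, and a missing call does not show that a gene was unchanged. The changed genes were drawn at random from all genes, with 50 at each size. These shares are therefore not those of the members. The median SD within groups was 0.090 over all genes, 0.16 over the hypoxia genes and 0.058 over the glycolysis genes. Without S153E-RKIP replicate 1, the only member called was ADM, where 1.53% of all genes were, and 11 had an unadjusted p under 0.05 (15.6% of all genes), 5 higher and 6 lower.

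**Figure D1:**
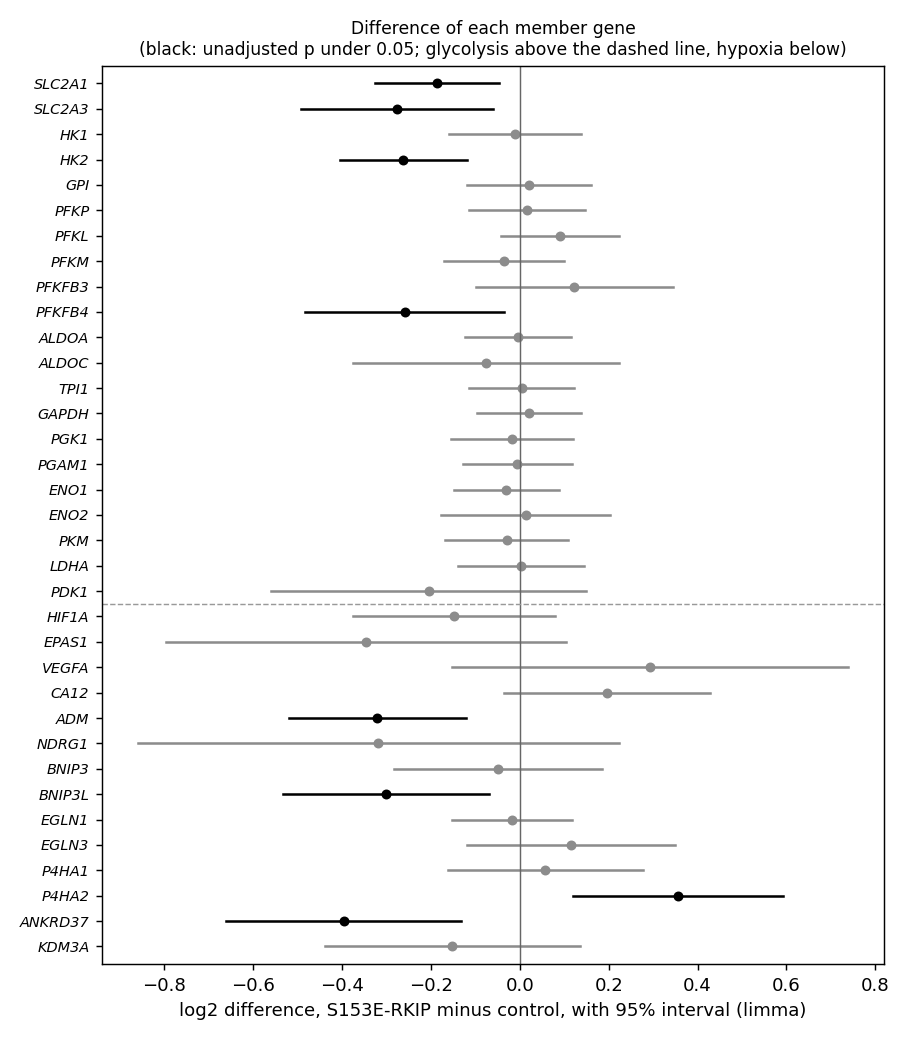
Difference of each measured gene, S153E-RKIP minus control, on the log2 scale (points) with its 95% confidence interval from limma (lines), with 21 glycolysis genes above the dashed line and 14 hypoxia genes below. Black marks the 8 genes with an unadjusted p under 0.05, of which only P4HA2 lies to the right of 0, and the intervals are narrowest for enzymes such as GAPDH, TPI1 and ALDOA and widest for NDRG1 and EPAS1.

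The 250 bases before the start of the 4 genes with the smallest p are shown because these are known HIF targets, whose regulation is usually discussed through the core letters bound by HIF, ACGTG or GCGTG. Capitals mark either core on either strand (CACGT and CACGC on the strand printed). Sequences are from RefSeq, build GRCh38.p14, in the direction of the gene: HK2 at chr2:74833877-74834126 (plus strand), ADM at chr11:10304823-10305072 (plus), ANKRD37 at chr4:185396591-185396840 (plus) and P4HA2 at chr5:132227092-132227341 (minus).
HK2: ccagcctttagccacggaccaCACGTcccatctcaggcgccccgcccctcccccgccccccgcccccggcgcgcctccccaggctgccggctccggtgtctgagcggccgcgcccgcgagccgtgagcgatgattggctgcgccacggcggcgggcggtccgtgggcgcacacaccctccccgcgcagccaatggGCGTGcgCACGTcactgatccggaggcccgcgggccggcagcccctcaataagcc
ADM: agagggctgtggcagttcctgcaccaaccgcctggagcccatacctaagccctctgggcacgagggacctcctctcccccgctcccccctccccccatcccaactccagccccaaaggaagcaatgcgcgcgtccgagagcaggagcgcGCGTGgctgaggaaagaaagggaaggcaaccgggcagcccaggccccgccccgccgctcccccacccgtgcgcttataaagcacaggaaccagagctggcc
ANKRD37: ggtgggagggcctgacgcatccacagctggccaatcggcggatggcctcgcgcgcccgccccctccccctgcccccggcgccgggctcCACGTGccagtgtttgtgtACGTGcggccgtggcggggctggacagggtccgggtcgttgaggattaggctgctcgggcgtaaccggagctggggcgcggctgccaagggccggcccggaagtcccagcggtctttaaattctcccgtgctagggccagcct
P4HA2: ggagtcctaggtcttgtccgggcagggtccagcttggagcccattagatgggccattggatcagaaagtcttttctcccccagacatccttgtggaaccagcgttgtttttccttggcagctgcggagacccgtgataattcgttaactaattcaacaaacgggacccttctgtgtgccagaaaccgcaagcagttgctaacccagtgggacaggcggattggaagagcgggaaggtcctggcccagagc

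HK2 held 2 copies of ACGTG and 1 of GCGTG, the nearest of which lay 44 to 48 bases before the start. ADM held 1 copy of GCGTG, at 97 to 101 bases. ANKRD37 held 3 copies of ACGTG, of which 2 are the opposite strands of a single palindrome, CACGTG. Neither core was in the P4HA2 window. Windows were matched for 33 of the 37 genes. ACGTG was present in 13 of these 33 (39.4%) and in 18.7% of 27305 windows of the same length, and GCGTG was present in 13 (39.4%) and in 31.9%. The windows of the listed genes were also richer in G and C, with a median of 69.6% against 58.0% over all windows, and both cores hold mostly G and C. Such a match is a description of the letters and says nothing of binding.

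Glucose enters these cells through facilitative transporters. SLC2A1 encodes GLUT1, the basal transporter of most cells, and had values of 9.28, 9.29 and 9.42 on the arrays labelled S153E-RKIP, against 9.49, 9.54 and 9.51 on the control arrays. All S153E-RKIP values were below all control values. This made a difference of -0.19, with SE 0.061 and a 95% confidence interval from -0.33 to -0.047 (limma adjusted p = 0.202). SLC2A3 encodes GLUT3, a high-affinity transporter, and had values of 7.50, 7.84 and 7.77 in S153E-RKIP and 7.91, 8.07 and 7.96 in control, again without overlap. Its difference was -0.28 (SE 0.094, adjusted p = 0.219). Leaving out replicate 1 of S153E-RKIP, the lowest array, made it -0.17. The probe set read for SLC2A3 is one that can pair with several transcripts, and its other probe sets gave differences of -0.24 and -0.67. For SLC2A1 a dimmer probe set (mean level 5.17) gave 0.0014.

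Hexokinases trap glucose in the cell as glucose-6-phosphate, and HK2 is the form that hypoxia and growth signals induce. HK2 had values of 10.37, 10.36 and 10.42 on the arrays labelled S153E-RKIP, against 10.74, 10.61 and 10.59 on the control arrays. The 3 S153E-RKIP values lay within a narrow band below all control values. The difference was -0.26 (SE 0.063, 95% confidence interval -0.41 to -0.12), or 1.20-fold lower, with an adjusted p of 0.0938 that was the smallest of the list. HK2 passed the threshold with only genes above the median level (adjusted p = 0.0371) or above 6 on at least 3 arrays (0.0469), and with trended and robust variances (0.0223). With the mean of its 3 probe sets the difference was -0.074 (adjusted p = 0.609). Over the single arrays left out in turn its adjusted p ran from 0.123 to 0.296. HK1, the constitutive hexokinase, had 11.22, 11.22 and 11.09 in S153E-RKIP and 11.22, 11.22 and 11.11 in control, a difference of -0.010 (95% confidence interval -0.16 to 0.14).

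Phosphofructokinase commits the sugar to glycolysis. Its 3 subunit genes PFKP, PFKL and PFKM had differences of 0.016, 0.090 and -0.035, with intervals that stayed within 1.25-fold in both directions. PFKL, the liver-type subunit, had 8.05, 8.05 and 8.14 in S153E-RKIP and 8.01, 8.02 and 7.94 in control. These groups did not overlap, but the difference was small (adjusted p = 0.484). GPI, which makes the fructose-6-phosphate that phosphofructokinase uses, had a difference of 0.021.

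PFKFB3 and PFKFB4 set the level of fructose-2,6-bisphosphate, the main activator of phosphofructokinase. PFKFB4 had values of 7.05, 7.35 and 7.32 in S153E-RKIP and 7.36, 7.63 and 7.51 in control, all lower but nearly touching at the nearest arrays. Its difference was -0.26 (SE 0.098, adjusted p = 0.261), and -0.17 without S153E-RKIP replicate 1. PFKFB3 had 9.15, 9.53 and 9.45 in S153E-RKIP, against 9.26, 9.23 and 9.27 in control. Replicate 1 of S153E-RKIP was below every control array and its replicates 2 and 3 were above them. The difference was 0.12 with all arrays and 0.24 without that replicate (adjusted p = 0.565 and 0.116). Over the single arrays left out it went down to 0.044.

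The enzymes from aldolase to lactate dehydrogenase differed little. All 10 measured genes of this stretch (ALDOA, ALDOC, TPI1, GAPDH, PGK1, PGAM1, ENO1, ENO2, PKM and LDHA) had differences between -0.076 and 0.020. For 9 of the 10 the 95% confidence interval excluded a 1.25-fold change of the array signal in either direction. Over all genes 72.1% had such an interval. The highest value on any array was 14.95, and of these genes GAPDH lay closest to it, then LDHA and ENO1. Whether differences in RNA are compressed at such levels was not tested. GAPDH, which oxidises glyceraldehyde-3-phosphate, had 14.56, 14.56 and 14.54 in S153E-RKIP and 14.54, 14.54 and 14.52 in control. Its groups did not overlap, yet the difference was 0.020 (interval -0.097 to 0.14). LDHA, which reduces pyruvate to lactate, had 13.99, 14.16 and 14.07 in S153E-RKIP, against 14.04, 14.10 and 14.08 in control (difference 0.0024, interval -0.14 to 0.14). PGK1, the first ATP-making step, had a difference of -0.018, and PKM, which makes pyruvate, one of -0.029. The exception in precision was ALDOC, the brain-type aldolase, with a level below the median of all genes and values of 6.38, 6.58 and 6.09 in S153E-RKIP and 6.33, 6.63 and 6.33 in control. GAPDH, ALDOA, TPI1, PGK1, PGAM1, ENO1 and LDHA were all read by probe sets whose names mark them as able to pair with several transcripts, so their values are uncertain to that extent.

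PDK1 encodes the kinase that shuts off pyruvate dehydrogenase and keeps pyruvate out of the mitochondria. Its values were 6.89, 7.53 and 7.42 on the arrays labelled S153E-RKIP, against 7.48, 7.61 and 7.36 on the control arrays. Only replicate 1 of S153E-RKIP stood below the control arrays. The difference of -0.20 (adjusted p = 0.547) became -0.0094 without it.

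**Figure D2:**
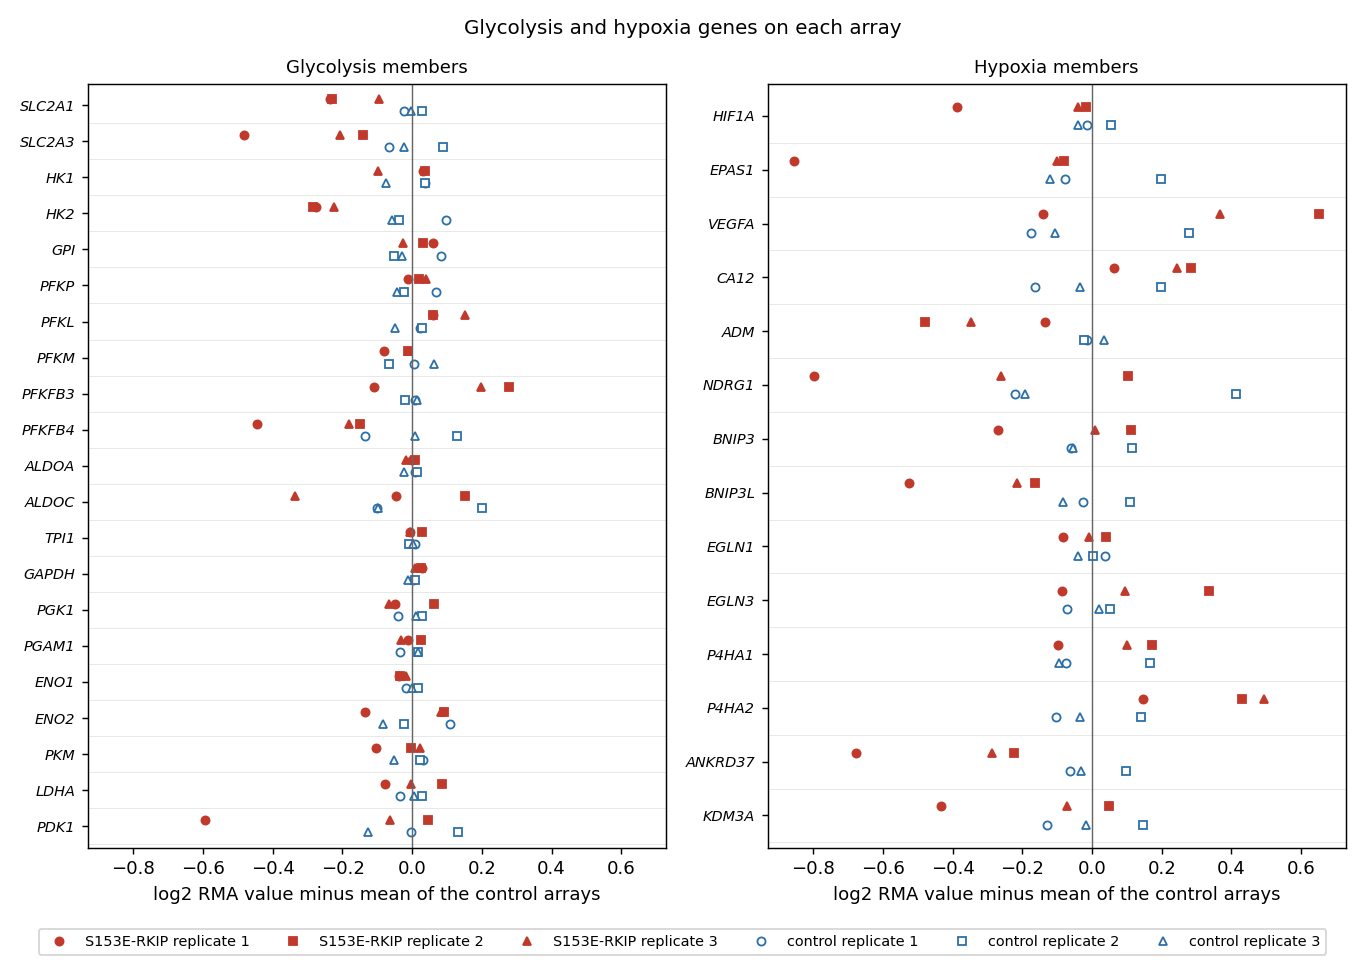
Log2 RMA value of each measured gene on each array, minus the mean of the 3 control arrays for that gene (horizontal axis), with filled red marks for S153E-RKIP above open blue marks for control in each row and marker shape for the replicate. The marks of ALDOA, TPI1, GAPDH, PGAM1 and ENO1 nearly coincide, while in most hypoxia rows the red circle (S153E-RKIP replicate 1) is the leftmost of the red marks and the blue square (control replicate 2) the rightmost of the blue.

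The hypoxia genes were more variable. HIF1A encodes the widely expressed oxygen-sensitive subunit of HIF and had values of 12.42, 12.79 and 12.77 on the arrays labelled S153E-RKIP, against 12.79, 12.86 and 12.77 on the control arrays. EPAS1 encodes the related subunit HIF-2 alpha and had 7.93, 8.70 and 8.68, against 8.71, 8.98 and 8.66 in control. For both genes S153E-RKIP replicate 1 lay far below the other 5 arrays. Their differences were -0.15 and -0.35 (limma adjusted p = 0.501 and 0.432), and -0.028 and -0.091 without that replicate. HIF activity is set mainly by protein stability, which these arrays do not measure.

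The prolyl hydroxylases EGLN1 and EGLN3 sense oxygen and tag the HIF alpha subunits, and EGLN3 is itself a HIF target. EGLN1 had a difference of -0.017 (95% confidence interval -0.15 to 0.12). EGLN3 had 5.59, 6.01 and 5.77 in S153E-RKIP and 5.61, 5.73 and 5.70 in control, a level below the median gene at which detection was not assessed. Its difference was 0.12 (adjusted p = 0.614). Over the single arrays left out this ran from 0.0042 to 0.22, the highest being without S153E-RKIP replicate 1.

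Among the HIF targets that act outside the cell, ADM and VEGFA differed in opposite directions. ADM encodes adrenomedullin, a vasodilator peptide, and had values of 12.45, 12.10 and 12.23 on the arrays labelled S153E-RKIP, against 12.57, 12.56 and 12.61 on the control arrays. All S153E-RKIP values were lower, and the control values were close together. The ADM difference of -0.32 had SE 0.087 and a 95% confidence interval from -0.52 to -0.12 (adjusted p = 0.138). ADM passed the threshold without S153E-RKIP replicate 1 (difference -0.41, adjusted p = 0.0357) and with trended and robust variances (adjusted p = 0.0278), and its adjusted p reached 0.359 when other single arrays were left out. VEGFA, the vascular growth factor gene, had 10.97, 11.77 and 11.48 in S153E-RKIP and 10.94, 11.39 and 11.01 in control. Replicates 2 and 3 of S153E-RKIP lay above all control arrays, and replicate 1 did not. The difference was 0.29 (SE 0.19, adjusted p = 0.496). It was 0.51 when replicate 1 was left out (adjusted p = 0.191), and leaving out replicate 2 of S153E-RKIP instead made it 0.11 (adjusted p = 0.809). All 4 probe sets of VEGFA had a difference above 0. CA12, a cell surface carbonic anhydrase that helps to export acid, had 7.81, 8.03 and 7.99 in S153E-RKIP and 7.58, 7.94 and 7.71 in control, a difference of 0.20 (adjusted p = 0.387) that was 0.11 without control replicate 1 and 0.30 without control replicate 2.

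BNIP3 and BNIP3L mark mitochondria for removal. BNIP3L had values of 10.37, 10.73 and 10.68 on the arrays labelled S153E-RKIP, against 10.87, 11.01 and 10.81 on the control arrays, all lower. Its difference was -0.30 (SE 0.10, adjusted p = 0.212), or 1.23-fold lower, and -0.19 without S153E-RKIP replicate 1. Its other probe set gave -0.21. BNIP3 had 11.70, 12.08 and 11.97 in S153E-RKIP and 11.90, 12.08 and 11.91 in control. These values overlapped, and the difference of -0.049 became 0.061 without that replicate.

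P4HA1 and P4HA2 encode the catalytic subunits of the enzyme that hydroxylates proline in collagen. P4HA2 had values of 9.05, 9.33 and 9.40 on the arrays labelled S153E-RKIP, against 8.80, 9.04 and 8.87 on the control arrays. All S153E-RKIP values were higher, with replicate 1 almost level with the highest control array. P4HA2 thus differed by 0.36 (SE 0.10, adjusted p = 0.157), or 1.28-fold higher, with a 95% confidence interval of 0.12 to 0.59. The difference was 0.46 without S153E-RKIP replicate 1 (adjusted p = 0.0608). It went down to 0.29 over the single arrays left out, with an adjusted p of up to 0.430. P4HA1 had 9.87, 10.14 and 10.07 in S153E-RKIP and 9.89, 10.14 and 9.87 in control. Its difference of 0.058 ran from 0.00094 to 0.14 over the single arrays left out, and was -0.049 with the mean of its probe sets. The dimmer of these had a mean level of only 3.37.

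ANKRD37, an ankyrin repeat gene known as a HIF target, had values of 7.49, 7.94 and 7.88 on the arrays labelled S153E-RKIP, against 8.10, 8.26 and 8.13 on the control arrays. All S153E-RKIP values were lower. ANKRD37 thus differed by -0.40 (SE 0.12, adjusted p = 0.161), with a 95% confidence interval of -0.66 to -0.13, and by -0.26 without S153E-RKIP replicate 1. NDRG1, a stress-response gene that marks hypoxic cells, had 8.66, 9.56 and 9.20 in S153E-RKIP and 9.24, 9.87 and 9.27 in control. It had the widest spread of the list within groups, and its difference of -0.32 (SE 0.24, adjusted p = 0.540) became -0.078 without S153E-RKIP replicate 1. KDM3A, a histone demethylase gene induced by HIF, had 8.49, 8.97 and 8.85 in S153E-RKIP and 8.79, 9.06 and 8.90 in control, with differences of -0.15 and, without that replicate, -0.012.

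The hypoxia genes shared an order of arrays within each group. S153E-RKIP replicate 1 was the lowest of its group for 13 of the 14 hypoxia genes, the exception being ADM, where it was the highest. Over all genes it was the lowest for 31.8%. Control replicate 2 was the highest of its group for 12 of the 14, the exceptions being ADM and EGLN1, and for 33.1% of all genes. Both held for 12 of the 14 hypoxia genes, for 7 of the 21 glycolysis genes and for 13.8% of all genes. The median of the hypoxia genes relative to the control mean was -0.20, 0.076 and -0.024 on S153E-RKIP replicates 1, 2 and 3, and -0.072, 0.13 and -0.039 on control replicates 1, 2 and 3. S153E-RKIP replicate 2 was thus above control replicates 1 and 3 by this median. For the glycolysis genes the same medians were -0.050, 0.025 and -0.019 in S153E-RKIP and 0.0041, 0.017 and -0.023 in control. The median difference between the groups over the hypoxia genes was -0.098, and 0.0018 without S153E-RKIP replicate 1. The other ranks ran alike by number. S153E-RKIP replicate 2 was the highest of its group for 12 of the 14 hypoxia genes, against 28.5% of all genes, and control replicate 1 was the lowest of its group for 8 of the 14, against 34.7%. Among the hypoxia genes replicate 1 was thus often low and replicate 2 mostly high in both groups. The glycolysis genes leaned the same way, though less strongly. Of these 21, S153E-RKIP replicate 1 was the lowest of its group for 12 and replicate 2 the highest for 13. Control replicate 2 was the highest of its group for 12 of the 21 and control replicate 1 the lowest for 8. What lies behind this order was not tested.

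**Figure D3:**
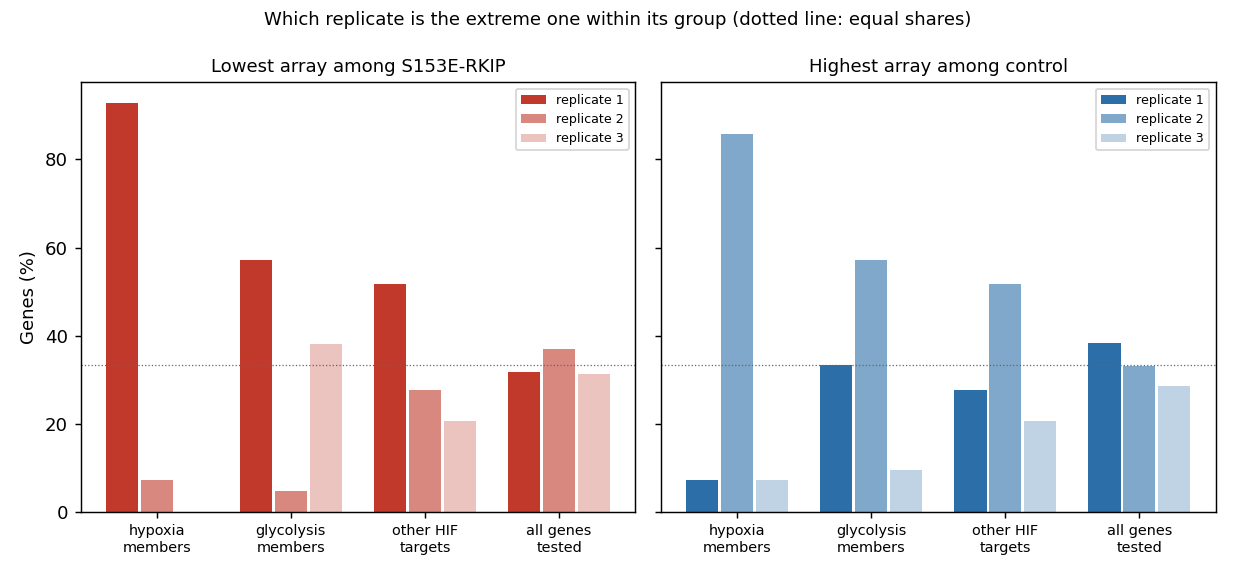
Share of genes (vertical axis, percent) for which each replicate was the lowest of the S153E-RKIP arrays (left) or the highest of the control arrays (right), for 14 hypoxia genes, 21 glycolysis genes, 29 other HIF target genes and all 19775 genes tested, with a dotted line at equal shares. Replicate 1 takes 92.9% of the hypoxia genes on the left and replicate 2 takes 85.7% on the right, while over all genes the shares of the replicates lie near the line.

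Spread within groups ran to both extremes of the array. By the pooled SD within groups, GAPDH, ENO1, TPI1, ALDOA and PGAM1 were among the steadiest 5% of all genes. NDRG1, EPAS1, VEGFA, PDK1, ALDOC and KDM3A, 6 of the 35, were among the most variable 5%. The median pooled SD was 0.16 over the hypoxia genes, 0.058 over the glycolysis genes and 0.090 over all genes. In this list the genes with the largest differences between groups, ANKRD37 and P4HA2, had SDs of 0.25 and 0.19 within S153E-RKIP and 0.085 and 0.13 within control (n = 3 each).

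Related genes were set side by side in 12 pairs, by the gap between the partners in S153E-RKIP minus that gap in control. The gap did not overlap between groups in 4 pairs. No such share was taken over other pairs of genes, and for single genes it was 20.1%. In each of the 4 pairs the partner named first below did not overlap by itself either. The gap is therefore not independent of that gene. For PFKFB4 and PFKFB3 it also holds the PFKFB3 difference of 0.12, opposite in sign to the -0.26 of PFKFB4. HK2 relative to HK1 differed by -0.25 (SE 0.074) and PFKFB4 relative to PFKFB3 by -0.38 (SE 0.088). BNIP3L relative to BNIP3 differed by -0.25 (SE 0.024), and P4HA2 relative to P4HA1 by 0.30 (SE 0.056). Each had p = 0.1 in a two-sided exact permutation test (0.3 adjusted over the 12 pairs). That is the smallest p this test can give with 3 against 3 arrays, so it could not pass 0.05 whatever the values and says nothing on whether the partners differ. For BNIP3L and BNIP3 the replicates moved together within groups, which left the gap with the smallest SE of the 12. The other 8 pairs overlapped, among them SLC2A3 with SLC2A1 (-0.089, SE 0.10), EPAS1 with HIF1A (-0.20, SE 0.15) and ENO2 with ENO1 (0.044, SE 0.096).

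The probe sets of a gene did not always give the same difference. The 35 genes had 82 probe sets of their own, and 24 genes had several. Tested singly, none of the 82 passed limma's test, where 1.05% of 54613 probe sets did, and 12 had an unadjusted p under 0.05, against 13.2% of all probe sets. For 10 of the 24 genes the probe sets differed in sign. HK2 had -0.26 on its brightest probe set and -0.043 and 0.084 on 2 dimmer ones (mean levels 6.61 and 5.62). ANKRD37 had -0.40, and -0.098 on a dimmer probe set (mean level 4.75). P4HA2 had 0.36 and 0.26, and -0.048 on its dimmest probe set (mean level 3.91). PGK1, with 6 probe sets, ran from -0.14 to 0.058. CA12, with 7, had a difference above 0 on 6.

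**Figure D4:**
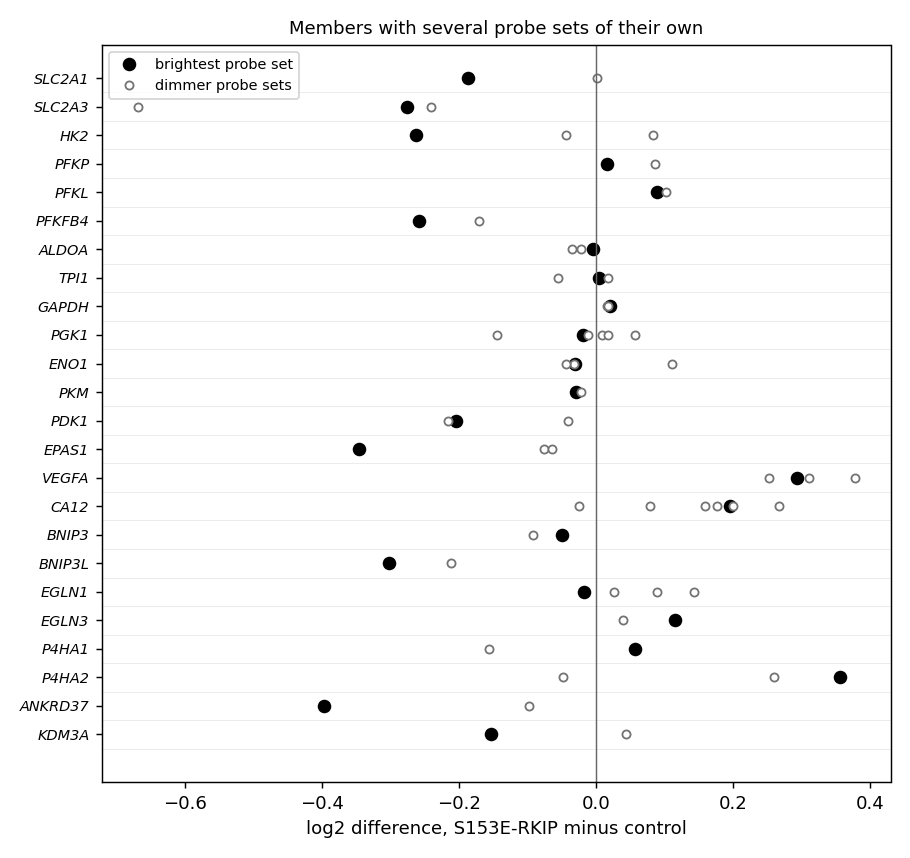
Difference of every probe set, S153E-RKIP minus control on the log2 scale (horizontal axis), for the 24 genes with several probe sets of their own, with large black marks for the brightest and small open marks for the others. The probe sets of SLC2A3, PFKFB4, BNIP3L and VEGFA lie on 1 side of 0, and the dimmer ones of SLC2A1, HK2 and ANKRD37 lie close to or nearer 0.

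Other genes of the same pathways were read from 4 lists with 82 genes, of which 77 were measured. Of 13 further regulators of HIF 1 fell and none rose (median difference -0.0080), and of 29 other HIF target genes 1 fell and 1 rose (median -0.0067). None of 23 other glycolysis genes was called by limma (median 0.032, 3 at an unadjusted p under 0.05). Nor was any of 12 genes for the entry of pyruvate into mitochondria (median -0.025, 0 at that p). Over all genes limma called 0.688% higher and 1.21% lower, and 15.7% had an unadjusted p under 0.05. CITED2, which competes with HIF for the coactivators CBP and p300, had 10.23, 9.93 and 10.00 on the arrays labelled S153E-RKIP, against 10.74, 10.65 and 10.67 on the control arrays. It fell by 0.63 (SE 0.084, adjusted p = 0.00853), a call lost without S153E-RKIP replicate 3 or control replicate 1 or 3 (adjusted p = 0.0529, 0.0724 and 0.0546). LOX, a lysyl oxidase and HIF target, fell by 0.59 (adjusted p = 0.0223), a call kept only without S153E-RKIP replicate 1 when single arrays were left out (adjusted p of up to 0.124). FAM162A, a mitochondrial HIF target, rose by 0.30 (SE 0.059, adjusted p = 0.0469). Leaving out any of the 6 arrays ended that call (adjusted p from 0.0693 to 0.191), and averaging its probe sets made the difference 0.13 (adjusted p = 0.253).

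In the lists with no call, the smallest p belonged to the sugar transporter genes SLC2A6 (-0.25, adjusted p = 0.117) and SLC2A12 (-0.26, adjusted p = 0.153), and to PDPR (-0.12) and PDK2 (-0.080), both regulators of pyruvate dehydrogenase. Named after their values were seen, 3 HIF targets repeated the array order of the hypoxia genes. Given that choice, they do not tell how common the order is. DDIT4, an inhibitor of mTORC1, had 8.53, 10.35 and 9.94 in S153E-RKIP and 9.84, 10.65 and 10.10 in control, a difference of -0.59 (adjusted p = 0.522) that became -0.050 without S153E-RKIP replicate 1. BHLHE40, a transcriptional repressor gene, had 6.02, 7.43 and 7.34 in S153E-RKIP and 7.87, 8.43 and 7.99 in control, a difference of -1.16 (adjusted p = 0.161) that became -0.71 without the same replicate (adjusted p = 0.104). Its dimmer probe set gave -0.10. STC1, encoding stanniocalcin, had 9.06, 9.74 and 9.59 in S153E-RKIP and 8.49, 9.06 and 8.65 in control, a difference of 0.73 (adjusted p = 0.125). Of the 29 other HIF targets, 15 were lowest on S153E-RKIP replicate 1 within its group and 9 were highest there. Over all genes 31.8% were lowest and 40.4% highest on that array. Control replicate 2 was the highest of its group for 15 of the 29, against 33.1% of all genes. Lowest on S153E-RKIP replicate 1 and highest on control replicate 2 within their groups were 12 of the 29, against 13.8% of all genes.

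**Figure D5:**
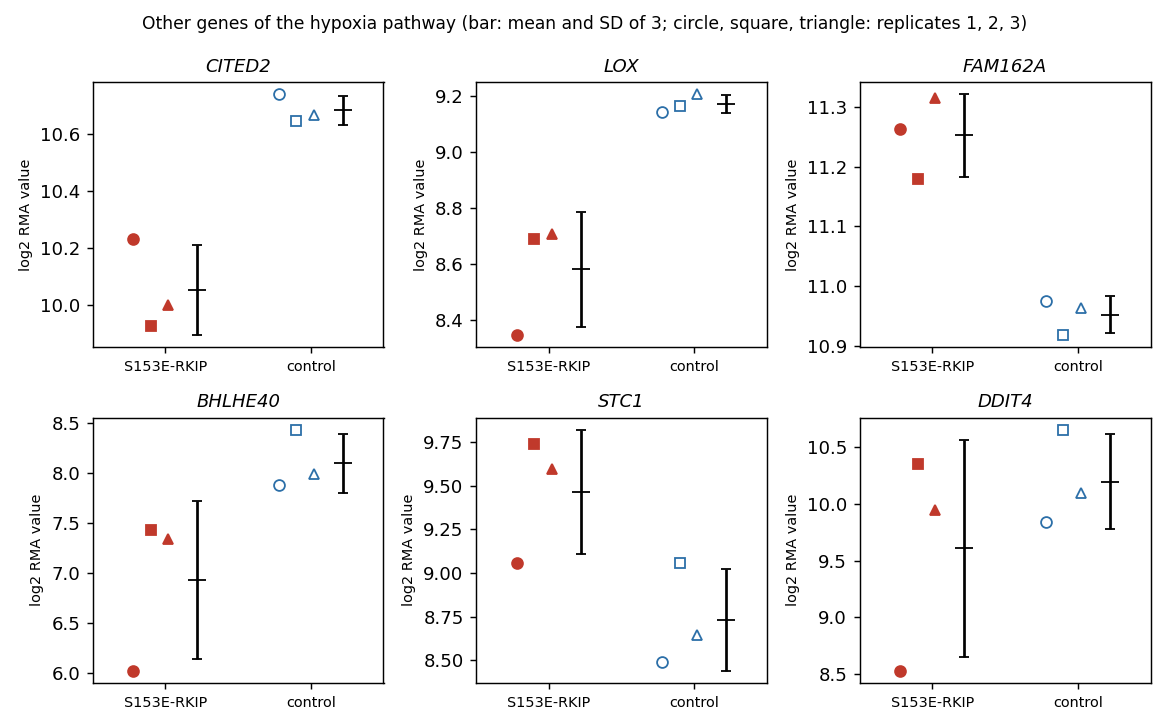
Log2 RMA values (vertical axes, not starting at 0) of 6 other hypoxia pathway genes on the S153E-RKIP arrays (left, filled) and control arrays (right, open), with replicates by marker shape and black bars for the mean and SD of 3 arrays. CITED2, LOX and FAM162A are the called genes, and in BHLHE40, STC1 and DDIT4 the circle of S153E-RKIP is the lowest of its group and the square of control the highest.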

How the data were processed

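RNA from each of the 6 samples was hybridised to 1 Affymetrix HG-U133 Plus 2.0 array. The authors deposited log2 values for every probe set. The submitters' processing notes name RMA, a method that removes background, equalises quantiles and condenses the probes of a set, with no version in the sources used here. Per the labels' protocols, target was made from 1 µg of total RNA with a whole-transcript labelling kit, although this is a 3' array. Array medians ran from 5.63 to 5.67 in S153E-RKIP and from 5.60 to 5.62 in control. All S153E-RKIP medians thus lay above all control medians. The 62 control probe sets and the probe sets with several gene symbols or none (1801 and 11777) were left out.

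Each gene was read by the brightest of its own probe sets, for 19775 genes. Groups came from sample titles. limma 3.58.1 (R 4.3.3; lmFit, eBayes) was fitted over all genes, with Benjamini-Hochberg adjustment and no filter on dim genes. The number of arrays limits the precision (median SE 0.072 over all genes, 0.087 over the members). On simulated data for 19775 genes, 49 of 50 genes changed 2-fold and 5 of 19575 unchanged genes were called. The members and lists were chosen with earlier results of these data known. All members were named, in full where the unadjusted p was under 0.05, where groups did not overlap or where related genes were compared, and of each other list the called genes or, with none, the 2 with the smallest p. Alternatives were other probe set summaries, 2 filters, 2 normalisations, other variance settings, array weights, a replicate block, a threshold of 0.1 and each array left out. Figures were drawn with matplotlib 3.10.9.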

Additional observations from a re-analysis of the deposited data

How the results depend on the processing

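In all, 376 genes were called, a count that became 600 with trended and robust variances, 627 at an adjusted p under 0.1 and 124 to 303 when single arrays were left out. The count of members called was 0 and became 1 with either filter on dim genes, 1 at the threshold of 0.1, 2 with trended and robust variances and 0 to 1 with single arrays left out. The genes concerned were HK2 and, without S153E-RKIP replicate 1 or with those variances, ADM. The 3 calls among other pathway genes became 5 with only genes above the median level, 5 with those variances and 0 to 2 with single arrays left out. The 8 members with an unadjusted p under 0.05 became 5 with the mean of the probe sets and 5 to 11 with single arrays left out. Replicate numbers were not taken to pair the samples, and the labels do not say how the replicates were made. Deviations from the group mean had correlations of 0.13, 0.26 and -0.044 between same-numbered arrays. Between arrays of different number they ran from -0.27 to 0.13. These correlations cannot decide whether the numbers pair the samples. With the number as a replicate block, 332 genes, 0 members and 5 other pathway genes were called, 12 members had an unadjusted p under 0.05, and FAM162A lost its call. The median difference with single arrays left out ran from -0.042 to -0.0032 over the members, from -0.034 to 0.0047 over the glycolysis genes and from -0.17 to 0.0018 over the hypoxia genes.

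Sign reversals touched 18 members, none called under any setting. With equal array medians the differences were -0.0043 (PFKP), -0.016 (TPI1), -2.1e-04 (GAPDH), -0.0075 (ENO2) and -0.018 (LDHA). With a second quantile normalisation they were 0.022 (HK1), 0.0053 (PFKM), 0.011 (ALDOA), -0.0043 (LDHA) and 0.027 (EGLN1). The mean of the probe sets gave -0.011 (TPI1), 0.0015 (ENO1), 0.061 (EGLN1) and -0.049 (P4HA1). Leaving out probe sets that can pair with several transcripts gave 0.0014 (SLC2A1), -0.056 (TPI1) and -0.16 (P4HA1). The probe sets then read were dim, with mean levels of 5.17 (SLC2A1), 4.96 (TPI1) and 3.37 (P4HA1). Leaving out single arrays gave ranges of -0.047 to 0.034 (HK1), -0.0053 to 0.062 (GPI), -0.0053 to 0.050 (PFKP), -0.015 to 0.0045 (ALDOA), -0.19 to 0.053 (ALDOC), -0.0072 to 0.011 (TPI1), -0.059 to 0.0061 (PGK1), -0.023 to 0.0068 (PGAM1), -0.029 to 0.088 (ENO2), -0.056 to 0.0085 (PKM), -0.040 to 0.042 (LDHA), -0.13 to 0.061 (BNIP3) and -0.046 to 0.015 (EGLN1). The cause of these reversals was not tested. The deposited values hold no detection calls, so signal over background was not assessed.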
